A study of Mus musculus with 4 samples.

Results

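Transition proteins and protamines are the small basic proteins that replace histones when the haploid spermatid condenses its nucleus. The genes described here are the 5 rows of the deposited table whose symbol is Tnp1, Tnp2, Prm1, Prm2 or Prm3, of 25965 listed genes. All 5 were found, and all 5 reached 1 RPM (reads scaled to a common library total) in at least 2 libraries, the filter that left 15888 genes for testing. The RNA came from round spermatids sorted by flow cytometry from mouse testis on the ICR background. It was amplified with Smart-seq2, a protocol that reads whole transcripts. The tested cells carried the genotype Wfdc15a-/- (2 libraries) and the controls the genotype Wfdc15a+/- (2 libraries), so the controls also had 1 altered allele. The labels give no age, treatment, type of allele or number of animals, and p-values therefore measure the spread between these libraries, which may be technical. In the sections on values, libraries are named by genotype and replicate number.

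In round spermatids the genes for transition proteins and protamines are switched on after meiosis, in mice with the help of the activator CREM. Their messenger RNAs are then kept untranslated in ribonucleoprotein particles until the spermatid elongates. Transition proteins 1 and 2 displace the histones first, and protamines 1 and 2 take their place in the mature sperm nucleus. Prm3 lies between Prm2 and Tnp2 in the genome, and in mouse its product is an acidic protein of the cytoplasm and not a chromatin protein.

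Tnp1 lies on chromosome 1 (73015083 to 73015899, minus strand, mm10). The other 4 genes share the minus strand of chromosome 16 within 8951 bases, in the order Tnp2 (10787936 to 10788655), Prm3 (10790507 to 10790913), Prm2 (10791383 to 10792105) and Prm1 (10796326 to 10796886). The GENCODE M21 transcripts closest to these coordinates are short, at 437 bases for Tnp1, 554 for Tnp2, 469 for Prm1, 621 for Prm2 and 410 for Prm3. Prm3 has 1 exon and each of the other genes has 2. The 150 bases before the first transcribed base of each gene, from RefSeq on GRCm38.p6, are shown because the 5 genes differed in the same direction. In them, capitals mark a stretch that matches at least 7 of the 8 letters of TGACGTCA, the palindromic element bound by CREM and its relatives (reading the same on both strands), and the TATA nearest the start. The intervals are chr1:73015900-73016049, chr16:10788656-10788805, chr16:10796824-10796973, chr16:10792106-10792255 and chr16:10790915-10791064, all minus strand.
Tnp1: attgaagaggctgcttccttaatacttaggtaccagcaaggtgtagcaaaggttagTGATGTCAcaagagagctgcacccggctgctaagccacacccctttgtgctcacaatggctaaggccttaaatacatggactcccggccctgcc
Tnp2: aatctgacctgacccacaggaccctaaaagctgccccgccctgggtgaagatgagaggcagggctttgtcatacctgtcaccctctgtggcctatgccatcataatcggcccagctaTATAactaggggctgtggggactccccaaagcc
Prm1: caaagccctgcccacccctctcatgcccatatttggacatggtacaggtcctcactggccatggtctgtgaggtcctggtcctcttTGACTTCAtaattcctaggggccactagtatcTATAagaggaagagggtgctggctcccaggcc
Prm2: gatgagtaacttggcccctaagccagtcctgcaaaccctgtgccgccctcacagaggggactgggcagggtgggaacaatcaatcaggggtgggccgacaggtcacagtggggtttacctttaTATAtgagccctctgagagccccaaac
Prm3: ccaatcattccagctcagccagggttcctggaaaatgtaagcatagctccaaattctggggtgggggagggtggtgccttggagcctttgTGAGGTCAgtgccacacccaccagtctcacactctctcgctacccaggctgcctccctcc

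No window held TGACGTCA in full, which occurred on either strand in 1.37% of 32536 RefSeq promoter windows of the same length. Tnp1, Prm1 and Prm3 each held a match of 7 letters (TGATGTCA, TGACTTCA and TGAGGTCA), and 8.10% of all windows matched at least 7. Those matches began 94, 64 and 60 bases before the first transcribed base. The best match of Tnp2 had 6 letters and that of Prm2 had 5. TATA stood 33, 32 and 27 bases before the start in Tnp2, Prm1 and Prm2, and 21.3% of all windows held TATA on either strand. The file places the start of Prm1 63 bases further upstream than RefSeq does. These matches describe letters in a window and not the use of a site.

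The libraries held 21160061 and 11268909 reads (Wfdc15a-/- 1 and 2) and 5774112 and 33853604 reads (Wfdc15a+/- 1 and 2), recovered from the steps of the deposited values. Intervals on single values below cover counting error only, because amplified reads that carry no molecular identifier cannot count as separate molecules. Wfdc15a itself, the targeted gene, was read in all 4 libraries, at 82.6 and 59.5 RPM in Wfdc15a-/- cells and at 121 and 85.2 RPM in Wfdc15a+/- cells (log2 difference -0.53, SE 0.29, limma adjusted p = 0.647). Where in the gene the alteration lies is not labelled, so these reads neither check nor contradict the genotypes. Acrosome and round spermatid genes summed to 9133 and 8878 RPM in Wfdc15a-/- cells and to 8318 and 8623 RPM in Wfdc15a+/- cells, so the defining genes of the labelled cell type were present.

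The first question was whether the transcripts of the nuclear proteins differ between the genotypes. All 5 genes were lower in both Wfdc15a-/- libraries than in both Wfdc15a+/- libraries, by 3.25-fold for Tnp2, 2.75-fold for Prm1, 2.11-fold for Tnp1 and 1.76-fold for Prm2 and for Prm3 as ratios of mean RPM. None of these differences passed the test across all genes. With limma, 0 of the 5 had an adjusted p under 0.05, and the share passing among all tested genes was 0.0% (0 of 15888, where 1283 had an unadjusted p under 0.05, and 0 passed with voom weights on the recovered reads). At an unadjusted p under 0.05, 5 of 5 were lower, against 1.87% of all tested genes. Both Wfdc15a-/- libraries lay below both Wfdc15a+/- libraries for 5 of 5, against 15.0% of all tested genes. The members were chosen with earlier results of these data known, so these counts describe them and are not a test.

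**Figure D1:**
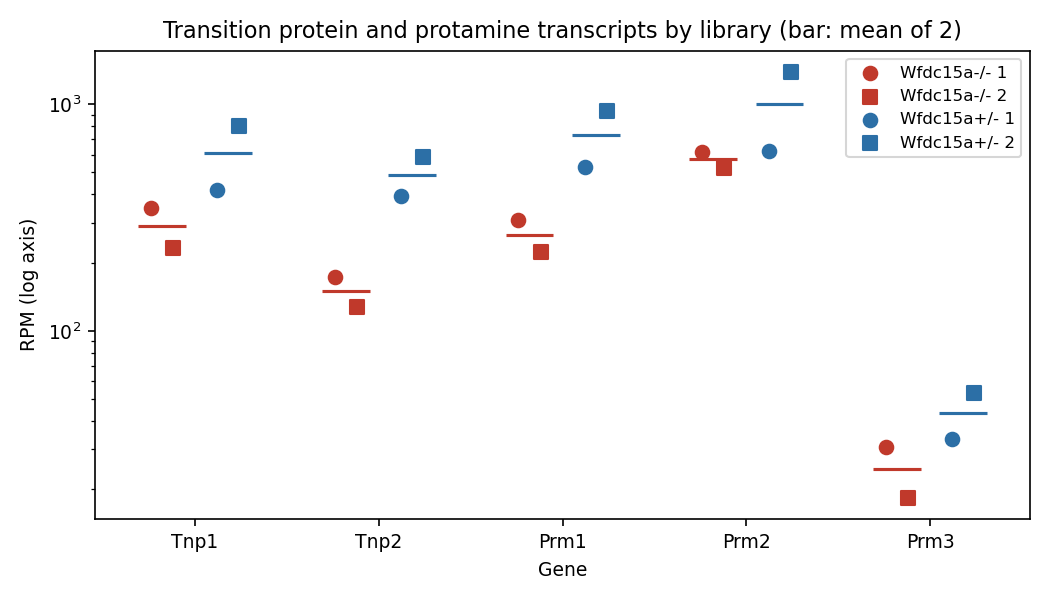
RPM of the 5 genes on a log axis, with 1 point per library (Wfdc15a-/- red and left, Wfdc15a+/- blue and right) and a bar at the mean of each group. The second Wfdc15a+/- library is the highest for every gene, and for Prm2 the first Wfdc15a+/- library (624 RPM) sits beside the first Wfdc15a-/- library (618 RPM).

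Tnp2, the gene of transition protein 2, had 173 and 127 RPM in Wfdc15a-/- cells, against 393 and 582 RPM in Wfdc15a+/- cells. The groups were far apart, since the lower Wfdc15a+/- library was 2.27-fold above the higher Wfdc15a-/- library. The log2 difference was -1.69 (SE 0.26, 95% confidence interval -2.26 to -1.12). Its limma adjusted p was 0.222, and it ranked 3 of 15888 by p.

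Tnp1, the gene of transition protein 1 and the 1 member outside the cluster on chromosome 16, had 347 and 231 RPM in Wfdc15a-/- cells, against 418 and 800.1 RPM in Wfdc15a+/- cells. Its groups did not overlap, but the nearest libraries of the 2 genotypes stood only 1.20-fold apart while the 2 Wfdc15a+/- libraries differed by 1.91-fold. The log2 difference was -1.03 (SE 0.31, 95% confidence interval -1.71 to -0.35, limma adjusted p = 0.478).

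Prm1, the gene of protamine 1, had 308 and 223 RPM in Wfdc15a-/- cells, against 529 and 931 RPM in Wfdc15a+/- cells. The nearest libraries of the 2 genotypes were 1.72-fold apart, and the 2 Wfdc15a+/- libraries 1.76-fold. The log2 difference was -1.42 (SE 0.28, 95% confidence interval -2.04 to -0.80, limma adjusted p = 0.295).

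Prm2, whose product is made as a precursor and trimmed in the elongating spermatid, had 618 and 525 RPM in Wfdc15a-/- cells, against 624 and 1387 RPM in Wfdc15a+/- cells. The second Wfdc15a+/- library stood well above the others, which lay closer together. The counting interval of the first Wfdc15a-/- library (607 to 628 RPM) overlapped that of the first Wfdc15a+/- library (603 to 644 RPM). The log2 difference was -0.71 (SE 0.31, 95% confidence interval -1.40 to -0.018, limma adjusted p = 0.607).

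Prm3 was read far less, with 651 and 207 reads in the Wfdc15a-/- libraries and 193 and 1798 reads in the Wfdc15a+/- libraries. Its levels were 30.8 and 18.4 RPM in Wfdc15a-/- cells, against 33.4 and 53.1 RPM in Wfdc15a+/- cells. The counting intervals of the first Wfdc15a-/- library (28.4 to 33.2 RPM) and the first Wfdc15a+/- library (28.9 to 38.5 RPM) overlapped. The log2 difference was -0.83 (SE 0.37, 95% confidence interval -1.63 to -0.018, limma adjusted p = 0.609).

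The 4 libraries took the same order for all 5 genes, with the second Wfdc15a+/- library highest, then the first Wfdc15a+/- library, the first Wfdc15a-/- library and the second Wfdc15a-/- library. That order, read from the members' own values, held for 3.27% of all tested genes, a share that therefore tests nothing about the members. Summed, the 5 genes took 0.148% and 0.112% of the reads in Wfdc15a-/- cells, against 0.200% and 0.375% in Wfdc15a+/- cells. The spread inside a genotype was wide for each gene: the 2 Wfdc15a+/- libraries differed by 1.48-fold (Tnp2) to 2.22-fold (Prm2) and the 2 Wfdc15a-/- libraries by 1.18-fold (Prm2) to 1.67-fold (Prm3). By depth the order from high to low was the second Wfdc15a+/- library, the first and the second Wfdc15a-/- library and the first Wfdc15a+/- library, so the first Wfdc15a+/- library was the shallowest but second in level, and the other 3 had the same order in depth and in level. The part of depth in the result was not tested. Without the second Wfdc15a+/- library the median log2 difference of the 5 genes was -0.56, against -1.03 with all libraries, and that of Prm2 was -0.13. In bulk samples such as these, fewer cells at a late step and less RNA per cell cannot be told apart.

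**Figure D2:**
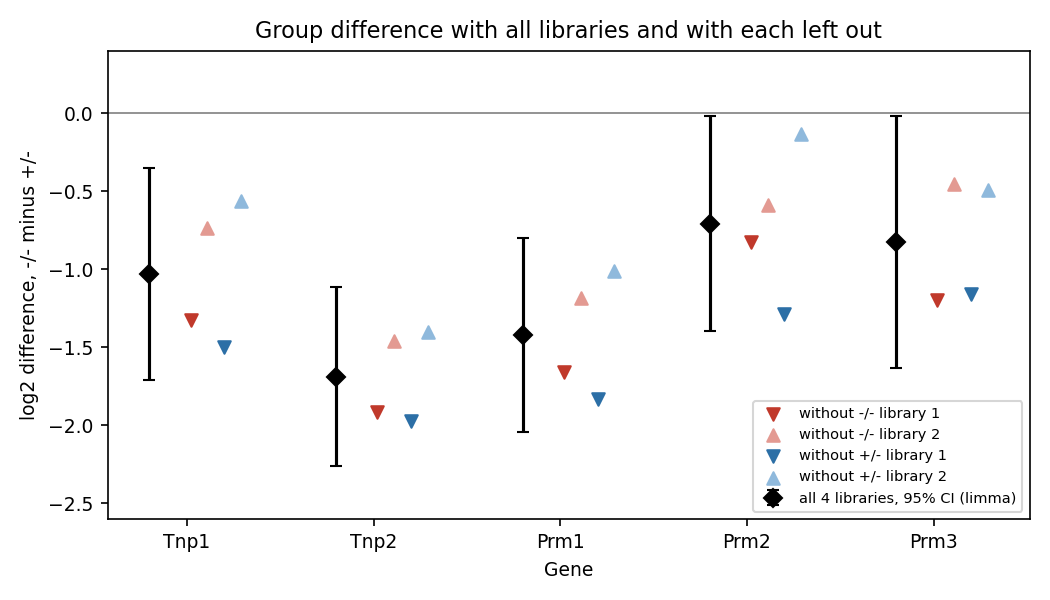
log2 difference of each gene, Wfdc15a-/- minus Wfdc15a+/-. Black diamonds with 95% confidence intervals come from limma on all 4 libraries, and triangles leave out 1 library each. The differences stay below 0 throughout, and that of Prm2 shrinks to -0.13 without the second Wfdc15a+/- library.

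Among abundant transcripts, few were lower by this much. Of 2440 tested genes with a mean of at least 100 RPM, 7 had a log2 difference of -1 or lower, and Tnp2, Prm1 and Tnp1 were 3 of them. Over all tested genes the share was 3.01%. Genes higher by as much were not counted. Among protein-coding genes at 100 RPM or more the log2 difference reached 1.63 at the highest. The other 4, chosen after their values were seen, were Btbd1, Nudt4, Fgf14 and Rps29. Prm2 was among the 2440 genes and missed the cut, at -0.71, while Tnp1 only just met it, at -1.03. Prm3, with a mean under 100 RPM, is not among the 2440. Differences between the 2 Wfdc15a+/- libraries at least as wide as that of Tnp2, on the side of the second library, were common, at 14.3% of the 2440 genes. Tnp2 had a log2 gap of 0.57. The gaps of Prm1 (0.82), Tnp1 (0.94) and Prm2 (1.15) were wider, and the share of genes reaching those was not counted.

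Levels were compared between the genes per kilobase of transcript (RPM per kb). In Wfdc15a-/- cells the order from high to low was Prm2 (920.0 ± 106), Tnp1 (662 ± 189), Prm1 (566 ± 129), Tnp2 (271 ± 59.4) and Prm3 (59.9 ± 21.4 RPM per kb, SD, n = 2 each). In Wfdc15a+/- cells it was Prm2 (1619 ± 870), Prm1 (1557 ± 606), Tnp1 (1394 ± 618), Tnp2 (880.1 ± 241) and Prm3 (106 ± 34.0 RPM per kb, SD, n = 2 each). The SDs of neighbours from Prm2 down to Prm1 in Wfdc15a-/- cells overlapped, as did those of neighbours from Prm2 down to Tnp2 in Wfdc15a+/- cells. These SDs hold the shift between libraries that the genes share. Within libraries, Tnp1 was above Prm1 in both Wfdc15a-/- libraries (795 and 528 against 658 and 475 RPM per kb). In both Wfdc15a+/- libraries Prm1 was above Tnp1, and Tnp1 above Tnp2 at per-kilobase ratios of 1.35 and 1.74. Prm1 and Prm2 changed order there, at ratios of 1.12 and 0.889. Prm3 was the lowest in every library, at 44.8 to 130 RPM per kb.

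The second question was whether the balance between partners differed, for which ratios within a library are free of its scaling. The Prm1 to Prm2 ratio of RPM was 0.499 and 0.424 in Wfdc15a-/- cells, against 0.849 and 0.671 in Wfdc15a+/- cells. Both Wfdc15a-/- libraries were lower, and the gap between genotypes was wider than the gap inside either. Per kilobase the mean ratio was 0.611 in Wfdc15a-/- cells and 1.01 in Wfdc15a+/- cells, where the libraries lay on either side of 1 (1.12 and 0.889). The Prm1 length used, 469 bases, follows the deposited start, which lies 63 bases upstream of the RefSeq start. A shorter Prm1 transcript would raise the ratio per kilobase in every library. The log2 difference of the ratio was -0.71, and the libraries of 1 genotype differed by 0.23 (Wfdc15a-/-) and 0.34 (Wfdc15a+/-).

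The Tnp1 to Tnp2 ratio of RPM was 2.003 and 1.82 in Wfdc15a-/- cells, against 1.06 and 1.37 in Wfdc15a+/- cells. Here both Wfdc15a-/- libraries were higher, and the log2 difference of 0.66 again exceeded the gaps inside the genotypes (0.14 in Wfdc15a-/- and 0.37 in Wfdc15a+/-). Exact binomial 95% intervals of the ratios, which cover counting error only, did not overlap between genotypes for either pair of genes. For Prm1 to Prm2 the highest bound in Wfdc15a-/- cells was 0.514 and the lowest in Wfdc15a+/- cells was 0.662. For Tnp1 to Tnp2 the lowest bound in Wfdc15a-/- cells was 1.70 and the highest in Wfdc15a+/- cells was 1.40.

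Within each pair, then, 1 transcript was further below the control level than its partner: Prm1 more than Prm2, and Tnp2 more than Tnp1. The ratio of summed transition protein to summed protamine transcripts was 0.544 and 0.467 in Wfdc15a-/- cells, against 0.684 and 0.583 in Wfdc15a+/- cells. Its log2 difference of -0.32 was close to the gaps inside the genotypes, 0.22 in Wfdc15a-/- and 0.23 in Wfdc15a+/-. Tnp2 set against Prm1, a ratio chosen after the values were seen, was 0.562 and 0.570 in Wfdc15a-/- cells and 0.743 and 0.625 in Wfdc15a+/- cells. Tested by exact permutation of the genotypes (two-sided), the Prm1 to Prm2, Tnp1 to Tnp2 and summed ratios each had p = 0.333, and 0.333 after adjustment over the 3, which is the smallest p that 2 libraries a genotype allow.

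**Figure D3:**
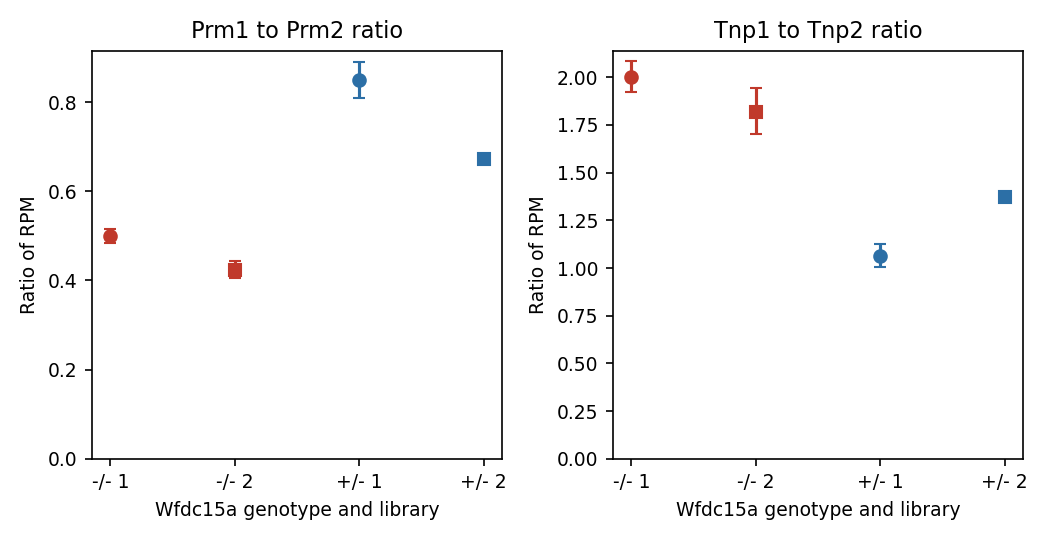
Ratio of RPM of Prm1 to Prm2 (left) and of Tnp1 to Tnp2 (right) in each library, Wfdc15a-/- in red and Wfdc15a+/- in blue. Bars are exact 95% binomial intervals for counting error. The first ratio is lower (0.499 and 0.424 against 0.849 and 0.671) and the second higher (2.003 and 1.82 against 1.06 and 1.37) in Wfdc15a-/- cells.

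Position on the chromosome was not used to choose the genes. Within 200 kb of the cluster the table lists 8 other genes, of which 4 were tested, and 1 of the 4 had both Wfdc15a-/- libraries below both Wfdc15a+/- libraries (15.0% of all tested genes did). That gene was Clec16a, which encodes a protein of mitophagy, at 53.0 and 55.1 RPM in Wfdc15a-/- cells and 61.3 and 60.8 RPM in Wfdc15a+/- cells (log2 difference -0.18, SE 0.26). Litaf, a gene of endosomal and lysosomal sorting, had 16.02 and 12.1 RPM in Wfdc15a-/- cells and 8.49 and 5.85 RPM in Wfdc15a+/- cells (log2 difference 0.98, SE 0.42, limma adjusted p = 0.596). Gm10343 and Gm15558 were near 1 RPM. Socs1, the gene of a cytokine signalling suppressor 2.4 kb from Tnp2, was under 1 RPM in every library and was not tested. None of the 4 tested neighbours showed the order of libraries that all 5 members shared, and only 3.27% of all tested genes showed it. So few neighbours cannot set the members apart from their locus.

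**Figure D4:**
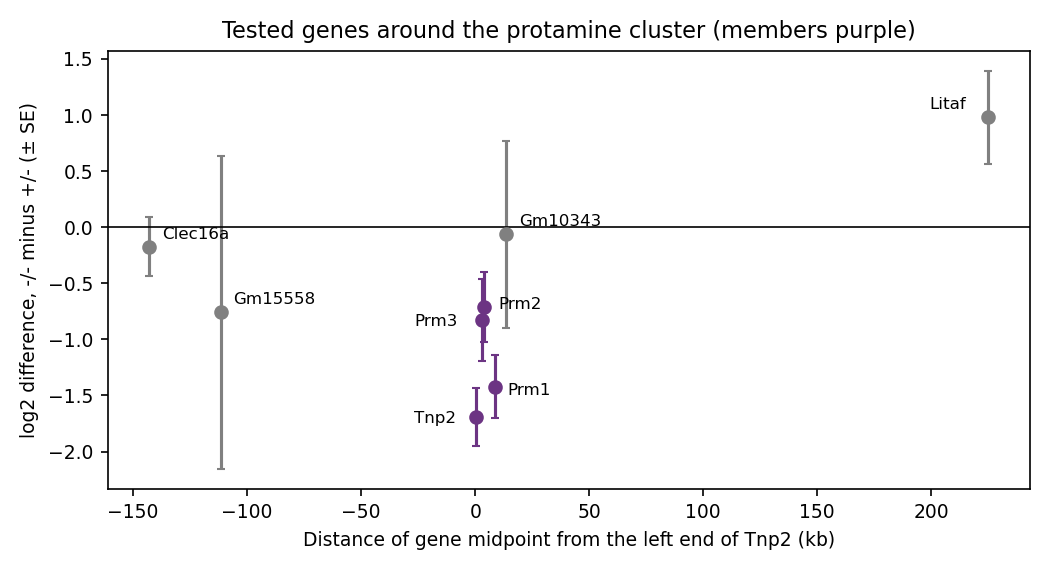
log2 difference (Wfdc15a-/- minus Wfdc15a+/-, ± SE from limma) of tested genes around the cluster against the distance of their midpoints from the left end of Tnp2 in kb. The 4 clustered members lie between -1.69 and -0.71, and the neighbours between -0.76 and 0.98 with wide errors where reads were few.

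Other genes of the pathway were examined by list. Of 25 tested genes for spermatid linker histones and histone exchange, 0 passed with limma, 1 was higher and 0 were lower at an unadjusted p under 0.05 (6.21% and 1.87% of all tested genes), and the median log2 difference was 0.04. The median over all tested genes was 0.07. The members of this list with the smallest p were Prmt5, an arginine methyltransferase gene (10.2 and 12.9 RPM in Wfdc15a-/- cells against 5.72 and 4.64 RPM in Wfdc15a+/- cells, log2 difference 1.15), H2afx, a histone variant gene of the DNA damage response (-1.03), Npm2, a histone chaperone gene (1.35), and Epc2, a gene of the TIP60 acetyltransferase complex (-0.58). H2afx had 4.58 and 3.02 RPM in Wfdc15a-/- cells and 9.01 and 6.41 RPM in Wfdc15a+/- cells. Npm2 had 5.95 and 5.50 RPM in Wfdc15a-/- cells and 1.21 and 4.16 RPM in Wfdc15a+/- cells, the lowest being in the shallowest library.

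Of 16 genes tied to transcription of the transition protein and protamine genes, 0 passed, 1 was higher and 0 were lower at an unadjusted p under 0.05, and the median was -0.01. Ep300, a histone acetyltransferase gene, was the 1 higher gene, with 37.5 and 52.3 RPM in Wfdc15a-/- cells and 28.2 and 18.3 RPM in Wfdc15a+/- cells (log2 difference 0.96, SE 0.34, limma adjusted p = 0.565). Fhl5, the gene of the CREM coactivator ACT, had 434 and 297 RPM in Wfdc15a-/- cells and 193 and 312 RPM in Wfdc15a+/- cells, and its groups overlapped. Ybx2, a Y-box gene of this list and of the storage list, was lower in both Wfdc15a-/- libraries (log2 difference -0.55, SE 0.25, limma adjusted p = 0.616). Kif17, the gene of a kinesin that in mouse controls where ACT resides, had 72.3 and 83.3 RPM in Wfdc15a-/- cells against 89.7 and 146 RPM in Wfdc15a+/- cells.

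Storage and translation of these messages was represented by 21 tested genes with a median of -0.02, of which 0 passed and 1 in each direction had an unadjusted p under 0.05. Both Wfdc15a-/- libraries were below both Wfdc15a+/- libraries for 6 of the 21 and above for 1 (15.0% and 23.5% of all tested genes). Ybx1, a Y-box protein gene that binds messenger RNA, had 620.0 and 606 RPM in Wfdc15a-/- cells and 812 and 922 RPM in Wfdc15a+/- cells (log2 difference -0.50, SE 0.19, limma adjusted p = 0.585). Ybx2, the germ cell Y-box gene whose product in mouse stabilises and represses protamine messages, had 70.4 and 81.6 RPM in Wfdc15a-/- cells and 102 and 120 RPM in Wfdc15a+/- cells (log2 difference -0.55, SE 0.25, limma adjusted p = 0.616). Piwil1, the gene of the mouse MIWI protein, was higher at 51.1 and 63.7 RPM in Wfdc15a-/- cells against 42.1 and 24.2 RPM in Wfdc15a+/- cells (log2 difference 0.84, limma adjusted p = 0.591). Papolb, the testis poly(A) polymerase gene, had 512 and 642 RPM in Wfdc15a-/- cells against 709 and 656 RPM in Wfdc15a+/- cells.

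Genes of elongating spermatids other than the members had a median log2 difference of 0.07 over 29 tested genes, with 0 passing and 0 in either direction at an unadjusted p under 0.05. Both Wfdc15a-/- libraries were below both Wfdc15a+/- libraries for 4 of the 29 and above for 0 (15.0% and 23.5% of all tested genes). The 29 summed to 15899 and 15121 RPM in Wfdc15a-/- cells and to 12144 and 19031 RPM in Wfdc15a+/- cells, so the groups overlapped and the second Wfdc15a+/- library was again the highest. Spem1, needed to shed cytoplasm from the elongated mouse spermatid, had 68.4 and 79.0 RPM in Wfdc15a-/- cells and 86.4 and 164 RPM in Wfdc15a+/- cells (log2 difference -0.70, SE 0.32, limma adjusted p = 0.616). Smcp, a sperm mitochondrial capsule gene, had 433 and 432 RPM in Wfdc15a-/- cells and 457 and 753 RPM in Wfdc15a+/- cells. Odf3 had 358 and 242 RPM in Wfdc15a-/- cells against 132 and 259 RPM in Wfdc15a+/- cells, and Klk1b5 stayed below 5 RPM.

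Over 28 tested genes of the acrosome and round spermatid list the median log2 difference was 0.16; 0 passed, 2 were higher and 0 lower at an unadjusted p under 0.05. Of the 28, 8 lay above both Wfdc15a+/- libraries and 0 below (23.5% and 15.0% of all tested genes). They included Hyal5 (log2 difference 0.71), Lyzl6 (0.60), Spaca1 (0.42) and Acrv1 (0.37), genes of the acrosome. With each library scaled to the median of this list, the members' log2 differences were between -1.90 (Tnp2) and -0.92 (Prm2), and the median of all tested genes moved to -0.14.

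**Figure D5:**
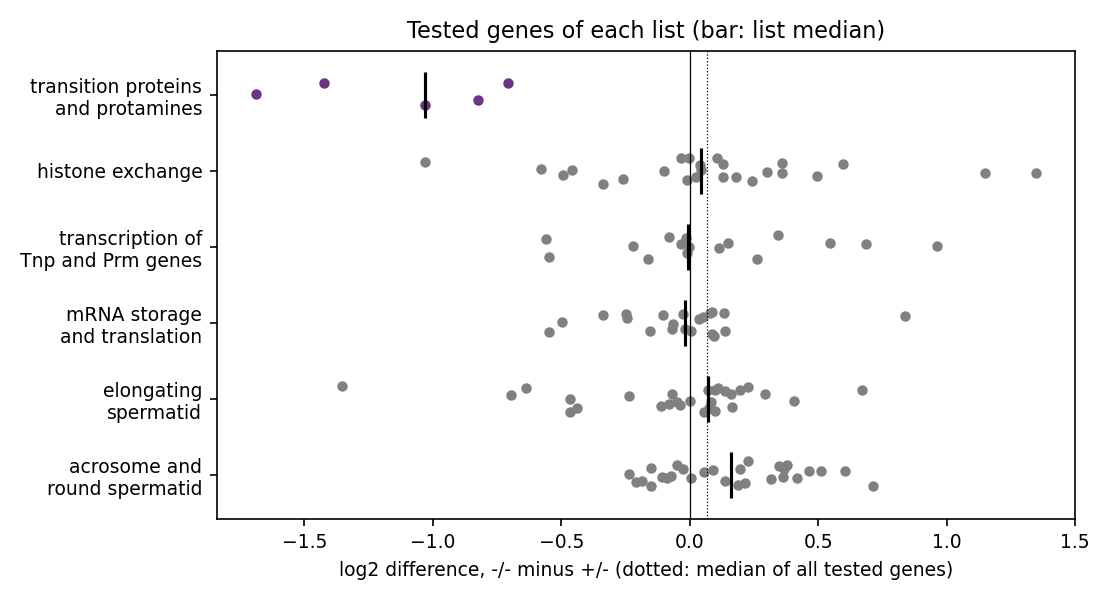
log2 difference (Wfdc15a-/- minus Wfdc15a+/-) of each tested gene in 6 lists, 1 point per gene, with the list median as a bar and the median of all tested genes as a dotted line. The 5 members lie at -0.71 or lower, and the medians of the other lists lie between -0.02 and 0.16.

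Summed markers of macrophages, Leydig cells and Sertoli cells were higher in both Wfdc15a-/- libraries. The sums of spermatocyte markers overlapped, and those of spermatogonial markers were lower in both Wfdc15a-/- libraries. The part of other cells in the members' difference was not tested. For the counts that follow, 23.5% of all tested genes had both Wfdc15a-/- libraries above both Wfdc15a+/- libraries and 15.0% had both below. Markers of macrophages summed to 430 and 146 RPM in Wfdc15a-/- cells and to 33.8 and 31.0 RPM in Wfdc15a+/- cells, with 17 of 18 tested markers above both Wfdc15a+/- libraries (23.5% of all tested genes) and Tyrobp at 0 reads in both Wfdc15a+/- libraries. Markers under 1 RPM in both libraries of 1 genotype passed the filter only through the other, which fixed their side. Among macrophage markers these were H2-Aa, Cybb, Ctss, Tyrobp, C1qa, C1qc, Cd68 and Cd14. The same held for Insl3 (Leydig) and Trf (Sertoli), counted as above, and for Id4 (spermatogonial), counted as below. Leydig cell markers summed to 45.5 and 21.9 RPM in Wfdc15a-/- cells and to 12.3 and 5.52 RPM in Wfdc15a+/- cells, with 3 of 6 tested markers above both Wfdc15a+/- libraries, 1 below (Nr5a1, log2 difference -2.61) and Hsd3b6 at 0 reads in both Wfdc15a+/- libraries. Nr5a1 had 1.56 and 0.089 RPM in Wfdc15a-/- cells and 2.94 and 1.74 RPM in Wfdc15a+/- cells. In Wfdc15a-/- library 2, 0.089 RPM is 1 read. Sertoli cell markers summed to 106 and 105 RPM in Wfdc15a-/- cells and to 55.1 and 62.9 RPM in Wfdc15a+/- cells, with 7 of 12 tested markers above, 0 below and Amh at 0 reads in all 4 libraries. Spermatocyte markers summed to 1204 and 1317 RPM in Wfdc15a-/- cells and to 1418 and 959 RPM in Wfdc15a+/- cells, with 2 of 19 tested markers above and 1 below. Spermatogonial markers summed to 280.2 and 241 RPM in Wfdc15a-/- cells and to 309 and 294 RPM in Wfdc15a+/- cells. That sum is mostly Dmrtb1 (182 and 157 RPM in Wfdc15a-/- cells and 242 and 236 RPM in Wfdc15a+/- cells), whereas 5 of the 12 tested spermatogonial markers were above, 2 were below and the median log2 difference was 0.82.

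The members are short messages, and the part of length in the result was not tested. Of 87 other protein-coding genes at 100 RPM or more with a transcript of up to 700 bases, the median level relative to each gene's mean over the libraries was 0.11 and -0.26 on the log2 scale in Wfdc15a-/- libraries 1 and 2 and 0.00 and 0.11 in Wfdc15a+/- libraries 1 and 2. Their median log2 difference between genotypes was -0.10, and it was -1.003 at the lowest. Both Wfdc15a-/- libraries lay below both Wfdc15a+/- libraries for 25.3% of the 87, against 14.7% of 375 genes with transcripts over 700 and up to 1500 bases and 16.2% of 1647 genes with transcripts over 1500 bases. These length limits were chosen after the values were seen. The members' own levels were -0.62 (Tnp2) to -0.04 (Prm3) in Wfdc15a-/- library 1, where the short genes' median was above 0, and -1.07 (Tnp2) to -0.47 (Prm2) in Wfdc15a-/- library 2, where it was below 0. They were -0.22 (Prm2) to 0.56 (Tnp2) in Wfdc15a+/- library 1 and 0.75 (Prm3) to 1.13 (Tnp2) in Wfdc15a+/- library 2.

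The genes whose profile over the 4 libraries was closest to the mean profile of the members were sought among 2125 genes at 100 RPM or more. The members and genes named Gm plus a number or ending in Rik were left out of the search. Likeness was the root mean square difference of log2 values after centring each gene, which was 0.07 (Tnp1) to 0.29 (Tnp2) for the members themselves and had a median of 0.67 over the candidates. The 6 closest were Rnf126, a ubiquitin ligase gene (0.24), Agpat3, a lysophospholipid acyltransferase gene (0.26), Tfam, the mitochondrial transcription factor A gene (0.29), Rps29, a ribosomal protein gene (0.31), Paqr5, a progestin receptor gene (0.32), and Pebp1 (0.34). Rnf126 had 102 and 78.4 RPM in Wfdc15a-/- cells and 111 and 183 RPM in Wfdc15a+/- cells. Agpat3 had 279 and 230.4 RPM in Wfdc15a-/- cells and 340.0 and 491 RPM in Wfdc15a+/- cells. None of the 6 lies on chromosome 16 or 1.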

How the data were processed

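Gene expression was measured by Smart-seq2 in 4 libraries of sorted round spermatids. The authors deposited log2 RPM values of 25965 genes with mm10 coordinates. Per the submitters' processing notes, FastQC 0.11.8, Trim Galore 0.6.6 and HISAT2 2.1.0 were used. How reads were counted, and whether by strand, was not given in the sources used here. Within each library the deposited values step by whole reads, with the lowest at 0.9 of a read. Taken so, 99.7% to 100.0% of the other values were whole within 0.01 of a read, which gave totals of 5774112 to 33853604 reads. Log2 values keep no adjustment for length, so levels between genes were divided by the length of the GENCODE M21 transcript closest to the file's coordinates.

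Titles give the groups and replicate numbers. The 15888 genes that reached 1 RPM in 2 or more libraries entered limma 3.58.1 (R 4.3.3) as deposited log2 values, with a variance trend, two-sided, and Benjamini-Hochberg adjustment over all tested genes. The fit was tested on simulated counts, where it recovered 25.2% of 305 genes changed by 1 log2 unit and 97.0% of 330 changed by 2. The spread between simulated libraries was set and not taken from these data. Ratios were tested with exact permutations in SciPy 1.17.1. The members and lists were chosen with earlier results of these data known. Named beside the members are the genes of the locus, the 6 closest profiles and up to 4 members of each pathway list by p. Results were recomputed with 3 further scalings, with log2(RPM + 1), without a filter or with one of 5 RPM, without the variance trend, with voom on the recovered reads, with a replicate block and without each library in turn.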

Additional observations from a re-analysis of the deposited data

How the results depend on the processing

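The log2 differences of all 5 genes stayed negative under each alternative run, and the 3 ratios kept their direction with RPM + 1, with the replicate block and without each library, the alternatives computed for them. With no filter 180 genes passed, among them Tnp2 (-1.69, limma adjusted p = 2.93e-08), Prm1 (-1.42, 3.83e-06) and Tnp1 (-1.03, 0.00617). With log2(RPM + 1), 1 gene passed. Leaving out 1 library gave 0 to 558 passing genes: 5 without Wfdc15a-/- library 2, 442 without Wfdc15a+/- library 1 and 558 without Wfdc15a+/- library 2, and in these fits the lone library is assumed to vary like the other group. The log2 differences then ran over -1.50 to -0.56 for Tnp1, -1.97 to -1.41 for Tnp2, -1.83 to -1.01 for Prm1, -1.28 to -0.13 for Prm2 and -1.20 to -0.45 for Prm3, and Tnp1, Tnp2, Prm1 and Prm2 passed without Wfdc15a+/- library 1 and Tnp2 and Prm1 without Wfdc15a+/- library 2. The cause of these changes was not tested. The log2 difference of the Prm1 to Prm2 ratio ran over -0.88 to -0.54, that of Tnp1 to Tnp2 over 0.47 to 0.84, and that of the summed ratio over -0.44 to -0.21. Same-numbered libraries did not deviate together over all genes (r = -0.08 across 15888 genes). This 1 value cannot exclude a pairing that acts on some genes, and the labels name none. With the replicate block 66 genes passed, among them Tnp2 (-1.69) and Prm1 (-1.42). At an unadjusted p under 0.05, 76.9% of genes were higher, against 58.2% after quantile normalization, 65.6% after median-ratio scaling and 47.8% after scaling to acrosome and round spermatid genes. The planned count test on whole reads was not run, since the deposited unit is log2. Depth limits Prm3 most, with 193 reads in Wfdc15a+/- library 1.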
